A study of Mus musculus with 12 samples.

Results

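The 9 enzyme genes of the tricarboxylic acid (TCA) cycle described here are Cs, Aco1, Idh1, Idh2, Idh3a, Ogdh, Suclg1, Fh1 and Mdh2. They were taken by gene symbol, and each symbol matched 1 of the 56748 genes in the count table. RNA-seq, which counts sequenced RNA fragments per gene, was run on whole livers of mice fasted for 24 h, with 4 livers in each of 3 genotypes. The control livers (WT below) are labelled CPT1A/1B/2 triple floxed control. The single knockouts (SKO) are labelled as lacking Cpt2 in the liver, and the double knockouts (DKO) as lacking both Atf3 and Cpt2 there. Floxed mice had been crossed to an albumin-Cre line, so that recombination takes place mainly in hepatocytes while other cells of the liver keep the genes. The mouse lines were of C57BL6 background, and all livers shared the fast. Ages are not in the labels, and the controls are floxed for a set of genes that differs from the genes deleted in the knockouts. Cpt2 is the inner-membrane carnitine palmitoyltransferase that releases long-chain acyl-CoA inside mitochondria for beta-oxidation, and Atf3 is a stress-induced transcription factor of the CREB/ATF family.

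The TCA cycle runs in the mitochondrial matrix and oxidizes the acetyl group of acetyl-CoA to carbon dioxide, passing electrons to NAD and FAD. Citrate synthase (Cs) joins acetyl-CoA to oxaloacetate, aconitase isomerizes citrate, isocitrate dehydrogenase and the 2-oxoglutarate dehydrogenase complex each release carbon dioxide, succinyl-CoA ligase makes a nucleoside triphosphate, and fumarase and malate dehydrogenase regenerate oxaloacetate. In a fasting liver the acetyl-CoA comes largely from fatty acid oxidation, and the cycle shares malate and oxaloacetate with gluconeogenesis. Among the 9 genes, Aco1 and Idh1 encode the cytosolic aconitase and the cytosolic NADP-dependent isocitrate dehydrogenase, whose reactions parallel those of the matrix enzymes. Aco1 without its iron-sulfur cluster is also the RNA-binding iron regulatory protein 1. The other 7 encode enzymes or subunits of the matrix, where Idh2 is NADP-dependent and Idh3a is the catalytic alpha subunit of the NAD-dependent enzyme.

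Sequences before the transcription start were looked up for the genes, because ATF3 belongs to a family that binds the cyclic AMP response element (CRE). RefSeq promoter windows on GRCm38.p6, from 250 bases before to 50 bases after each annotated start, were given for 8 of the 9 genes, all but Idh3a. The full CRE, TGACGTCA, was searched in the 250 bases before the start on both strands. It was present in at least 1 window of 1.77% of the 27025 genes with windows and of 2 of the 8 genes, Mdh2 and Ogdh. Ogdh has 6 windows, and its match is 1 site seen from 3 starts. The 30 bases around each match follow, 5′ to 3′, with the CRE in capitals. The Mdh2 match begins 127 bases before the RefSeq start and lies inside the Mdh2 gene as GENCODE M21 annotates it. The Ogdh match begins 51, 60 or 113 bases before the start, depending on which RefSeq start is taken.
Mdh2, chr5:135778511-135778540, plus strand: ggagagaatcgTGACGTCAggcctcgctcg
Ogdh, chr11:6291535-6291564, plus strand: acccaattctgTGACGTCAcgtcacgccca
Neither gene passed the test between DKO and SKO livers, and a match of letters is a description of the window and not a measured binding site.

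The next pair of windows belongs to Cs and Idh1, the member with the largest rise and the member with the highest level in WT livers. Capitals mark CCAAT boxes (CCAAT or its complement) and GC boxes (GGGCGG or its complement), which are common in promoters of housekeeping genes. CCAAT was present in a window of 37.5% of all genes and of 5 of the 8 genes (Cs, Fh1, Idh1, Idh2 and Ogdh). GGGCGG was present in a window of 35.4% of all genes and of 7 of the 8 genes, with Suclg1 the exception. The Idh1 window is the one before its more upstream start, and its 3′ end was trimmed to stay outside the annotated transcripts.
Cs, chr10:128337477-128337726, plus strand: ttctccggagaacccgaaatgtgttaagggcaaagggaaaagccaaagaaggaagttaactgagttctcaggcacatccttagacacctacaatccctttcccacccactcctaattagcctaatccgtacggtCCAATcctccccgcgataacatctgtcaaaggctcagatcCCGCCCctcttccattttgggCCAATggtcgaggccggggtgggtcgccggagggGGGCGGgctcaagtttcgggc
Idh1, chr1:65186501-65186729, minus strand: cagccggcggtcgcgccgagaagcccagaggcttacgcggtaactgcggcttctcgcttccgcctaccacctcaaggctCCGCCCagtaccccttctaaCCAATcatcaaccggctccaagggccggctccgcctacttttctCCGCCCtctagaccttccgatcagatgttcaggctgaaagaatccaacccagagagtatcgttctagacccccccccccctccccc
The estrogen-related receptor element TCAAGGTCA (0.422% of all genes), the DR1 direct repeat bound by nuclear receptors (0.0407%) and the NRF1 element (5.64%), searched the same way, had no match in the windows of the 8 genes. The motifs overlap neither each other nor the CRE in the printed windows.

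The libraries held 14710304 to 20030055 counts. Values are given as CPM, counts scaled to the library's total and composition. The WT livers held 234 ± 24.4 CPM of Cpt2, against 127 ± 22.7 CPM in the SKO group and 117 ± 11.8 CPM in the DKO group (SD, n = 4). Atf3 had 17 to 39 counts in WT livers, 259 to 1056 in SKO livers, and 164, 177, 265 and 5 counts in DKO livers 1 to 4, so in DKO livers 1 to 3 it lay above WT although the label gives a deletion. Counts over a whole gene do not show whether a floxed exon is missing. A pair of livers stood apart from the other 10, which had 2741 to 4294 counts on Y-linked genes and at most 19 on Xist, the RNA of the inactive X chromosome. SKO liver 3 had 18063 Xist counts and 2 Y-linked counts, and DKO liver 4 had 20855 and 0, although the study describes these livers as male. DKO liver 4 also had summed hepatocyte markers, mostly Alb, above the WT range (values are beside the DKO results). Test results of the 9 genes and of the genes given values that turn on either liver are given with and without it. Correlations were computed over all 12 livers only.

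Every one of the 9 genes was well covered, with 786 to 7621 counts in a liver, and together they took 0.164% to 0.221% of a library's counts. Levels of different genes were compared as CPM per kilobase of gene length. In WT livers Idh1 was highest at 106 ± 13.1 CPM per kb (SD, n = 4), followed by Fh1 at 83.1 ± 8.79, and neither range overlapped that of the gene below it. Ogdh (54.8 ± 3.39), Mdh2 (54.6 ± 3.08), Suclg1 (52.9 ± 1.23), Aco1 (52.6 ± 5.83) and Idh2 (47.5 ± 6.85) formed a band in which each gene overlapped the next. Cs at 16.7 ± 1.57 and Idh3a at 10 ± 0.323 lay below that band, apart from each other. The first enzyme of the cycle and the catalytic subunit of the NAD-dependent isocitrate dehydrogenase therefore had the lowest levels of the 9 RNAs in WT livers.

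In SKO livers the order was different at the top. Mdh2 had the highest mean at 80.6 ± 15.2 CPM per kb, but its range overlapped those of Fh1 (79.5 ± 18.4) and Idh1 (77.6 ± 8.86), so these levels did not differ beyond their spread. Cs, at 35.3 ± 6.93, reached the level of Aco1, at 36.8 ± 4.93. Idh3a stayed lowest in all genotypes, with 14.4 ± 2.4 in the SKO and 9.76 ± 0.317 in the DKO group. In DKO livers each of the 8 genes from Idh1 (76.1 ± 29.7) down to Cs (30.4 ± 6.77) overlapped its neighbour.

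**Figure D1:**
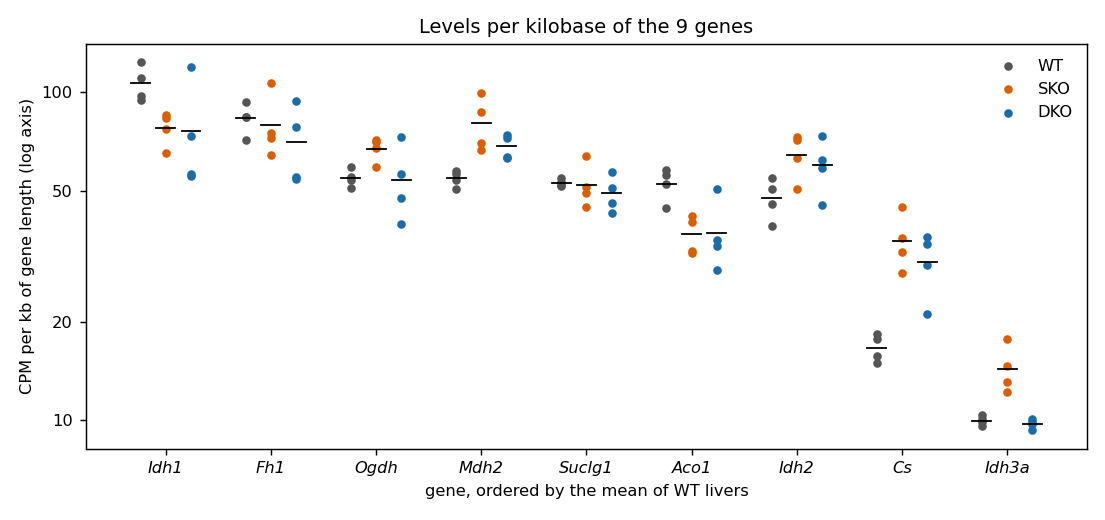
Levels of the 9 genes in CPM per kilobase of gene length on a log axis, with 1 point per liver, coloured by genotype, and a bar at the mean of 4 livers. Genes are ordered by their mean in WT livers, from Idh1 at 106 down to Idh3a at 10, and Cs moves from 16.7 in WT to 35.3 in SKO livers.

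The comparison of SKO with WT livers asks, by their labels, which cycle genes differ when Cpt2 is deleted in the liver. RNA counts do not measure fatty acid oxidation itself. Of the 9 genes, 4 were higher (Cs, Mdh2, Idh3a and Idh2), 2 were lower (Aco1 and Idh1) and 3 did not pass the test (Ogdh, Suclg1 and Fh1). The test was edgeR's quasi-likelihood F-test on 8 livers with Benjamini-Hochberg adjustment over all 14261 genes tested, and a gene was called at an adjusted p under 0.05. Of all genes tested, 32.1% were called, 16.7% higher and 15.4% lower, so a large share of called genes was not particular to the cycle. The median log2 fold change of the 9 genes was 0.29, against 0.0306 over all genes tested. Both cytosolic enzymes fell, and each of the 4 genes that rose encodes a matrix enzyme.

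Among the 9 genes, Cs, whose enzyme acts at the entry to the cycle, showed the largest change in RNA. Cs had 106, 102, 86.6 and 90.8 CPM in WT livers 1 to 4 and 163, 188, 208 and 257 CPM in SKO livers 1 to 4. The groups did not overlap, and the lowest SKO liver lay well above the highest WT liver. The log2 fold change was 1.08 ± 0.15 (SE), with an adjusted p of 0.000283 from edgeR, and the rise was called under each of the 15 alternative settings tried.

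Aconitase in this set is the cytosolic enzyme. Aco1 had 200, 236, 259 and 251 CPM in WT and 181, 147, 188 and 146 CPM in SKO livers. All 4 SKO livers were below all 4 WT livers, by a narrow margin between WT liver 1 and SKO liver 3. The log2 fold change was −0.52 ± 0.14 (SE) with an adjusted p of 0.013 from edgeR. Scaling by library totals alone gave −0.336 with an adjusted p of 0.066. That scaling raised the median log2 fold change of all genes from 0.031 to 0.204, and the share of called genes that were higher from 52% to 70.6%.

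The 3 isocitrate dehydrogenase genes moved in different directions. Idh1, which makes cytosolic NADPH, had 261, 270, 341 and 305 CPM in WT and 231, 213, 181 and 235 CPM in SKO livers, again without overlap. Its log2 fold change was −0.46 ± 0.14 (SE) with an adjusted p of 0.0239 from edgeR. The call was lost without WT liver 3 (adjusted p = 0.0709), WT liver 4 (0.0632) or SKO liver 3 (0.0581), with library totals (0.112, where the log2 fold change was −0.278), with all 12 livers in the fit (0.134, at −0.471) and without a filter on low counts (0.05 after rounding, at −0.433). Idh2, which makes NADPH in the matrix, had 101, 118, 142 and 131 CPM in WT and 184, 188, 163 and 131 CPM in SKO livers. SKO liver 4 lay inside the WT range and the other 3 above it. Its log2 fold change of 0.44 ± 0.15 (SE) had an adjusted p of 0.0455 from edgeR, and leaving out any 1 of 6 livers ended the call (adjusted p from 0.0596 to 0.152; WT livers 1, 2 and 4 and SKO livers 1, 2 and 3), as did RLE scaling (0.059) and all 12 livers in the fit (0.0916). Idh3a had 48.7, 52.7, 51.1 and 50.3 CPM in WT and 61.7, 66.6, 89.5 and 74.2 CPM in SKO livers. The WT livers lay within a few CPM of each other and every SKO liver was above them. The log2 fold change of Idh3a was 0.52 ± 0.13 (SE) with an adjusted p of 0.00902 from edgeR, and it was called under all 15 alternatives.

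The ratio of the cytosolic to the matrix NADP-dependent enzyme RNA followed from these opposite changes. Per kilobase, Idh1 over Idh2 was 2.42, 2.14, 2.24 and 2.17 in WT livers and 1.17, 1.06, 1.04 and 1.67 in SKO livers. No SKO liver reached the WT range. This ratio restates the called changes of both genes and was given no test.

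Ogdh, Suclg1 and Fh1 did not pass the test. Ogdh, the E1 subunit of the 2-oxoglutarate dehydrogenase complex, had 294, 323, 279 and 301 CPM in WT and 384, 390, 369 and 321 CPM in SKO livers, with SKO liver 4 inside the WT range. Its log2 fold change was 0.29 ± 0.12 (SE) with an adjusted p of 0.086 from edgeR, and it passed without SKO liver 4 (0.354, adjusted p = 0.0456) and with library totals alone (0.463, adjusted p = 0.0087). Suclg1, the alpha subunit of succinyl-CoA ligase, had 241, 246, 239 and 252 CPM in WT and 207, 294, 237 and 227 CPM in SKO livers. Its WT livers were the most alike among the 9 genes (coefficient of variation 2.32%), while SKO livers lay on both sides of them. Fh1, fumarase, had 242, 285, 315 and 285 CPM in WT and 246, 360, 254 and 218 CPM in SKO livers. Adjusted p was 0.919 for Suclg1 and 0.798 for Fh1, with log2 fold changes of −0.02 and −0.07, which library totals alone turned to 0.149 and 0.106.

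Mdh2, matrix malate dehydrogenase and the last step of the cycle, had 180, 205, 201 and 192 CPM in WT and 237, 354, 308 and 249 CPM in SKO livers. The groups did not overlap, and SKO livers 2 and 3 were highest. The log2 fold change was 0.56 ± 0.15 (SE) with an adjusted p of 0.0117 from edgeR, called under all 15 alternatives. Counting ranges alone, 3 of the 9 genes were higher in SKO without overlap (Cs, Idh3a and Mdh2) and 2 were lower (Aco1 and Idh1), against 17.2% and 16.1% of all genes tested.

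**Figure D2:**
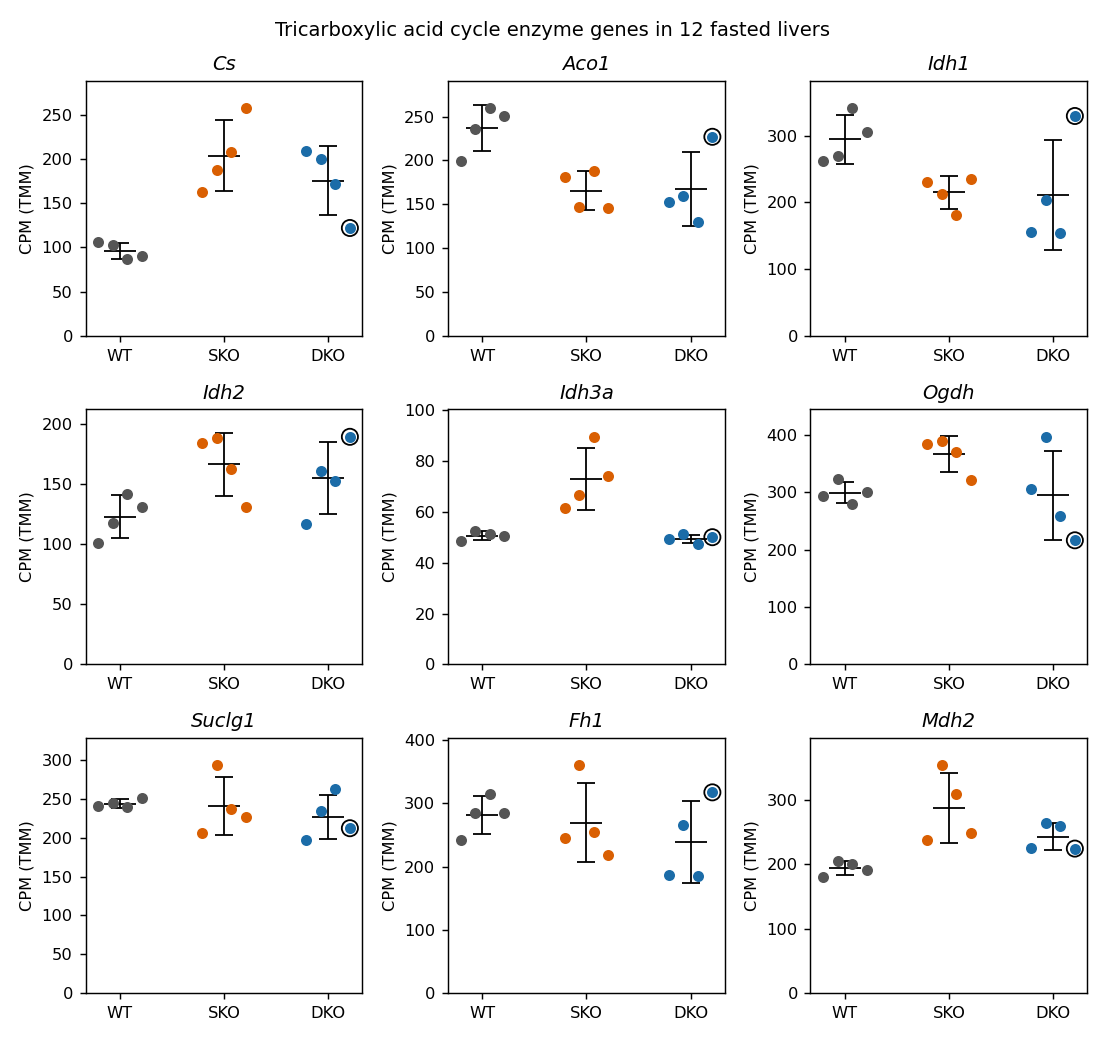
CPM of each gene on a linear axis from 0, with 1 point per liver (livers 1 to 4 from left to right in each genotype), a bar at the mean and whiskers of 1 SD (n = 4). DKO liver 4 is ringed; it has 122 CPM of Cs, the lowest of the DKO livers, and 329 CPM of Idh1, the highest.

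Hepatocyte markers differed between these groups. The summed level of 5 hepatocyte markers (Alb, Ttr, Apoa1, Serpina1c and Cps1) was 6.89e+04 to 8.62e+04 CPM in WT and 3.75e+04 to 6.52e+04 CPM in SKO livers, and that of 5 cholangiocyte markers was 27.9 to 33.3 CPM in WT and 7.41 to 14.4 CPM in SKO livers. Summed markers of macrophages (172 to 342 CPM in WT, 177 to 373 in SKO), stellate cells (57.4 to 66.3 and 55.1 to 107), endothelial cells (138 to 298 and 181 to 240), lymphocytes (7.25 to 17.6 and 5.22 to 15.9) and erythroid cells (109 to 233 and 146 to 504) overlapped. Of the 3 exocrine pancreas markers Prss2 was at 0 in all livers, and their sum was 7.02 to 7.97 CPM in WT and 3.79 to 7.67 CPM in SKO livers. In whole tissue, fewer cells of a type and less RNA per cell cannot be told apart, and the part of these shifts in the changes of the cycle genes was not tested.

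The comparison of DKO with WT livers used the same 4 WT livers, so it is not independent of the comparison above. Only Cs was called of the 9 genes (higher), and the median log2 fold change of the 9 was −0.022 against 0.0303 over all genes. Of all 14448 genes tested, 10.5% were called, 6.06% higher and 4.39% lower. Cs had 209, 199, 172 and 122 CPM in DKO livers 1 to 4, each above the highest WT liver. Its log2 fold change was 0.88 ± 0.17 (SE) with an adjusted p of 0.0194 from edgeR. Leaving out any single liver other than DKO liver 4 ended the call (adjusted p from 0.0523 to 0.0637), with log2 fold changes from 0.781 to 0.905.

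Mdh2 had 225, 264, 259 and 224 CPM in DKO livers, all above the WT livers. It did not pass (log2 fold change 0.33 ± 0.12 SE, adjusted p = 0.0889, edgeR), and it was called by DESeq2's Wald test (0.312, adjusted p = 0.0426), with library totals alone (0.515, 0.0312) and without DKO liver 4 (0.364, 0.0181). Cs and Mdh2 were the 2 genes whose DKO livers were all above WT, against 7.72% of all genes, and no gene of the 9 had all DKO livers below WT, against 9.05% of all genes. Idh2, with 117, 161, 152 and 189 CPM in DKO livers, had a log2 fold change of 0.35 and an adjusted p of 0.207 from edgeR (0.518 and 0.0492 with library totals alone), and DKO liver 1 lay inside the WT range.

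Aco1 had 152, 160, 129 and 227 CPM and Idh1 156, 204, 154 and 329 CPM in DKO livers. For both, DKO livers 1 to 3 were below every WT liver and DKO liver 4 was inside the WT range. With all 4 DKO livers the log2 fold changes were −0.49 (adjusted p = 0.113, edgeR) for Aco1 and −0.47 (0.238) for Idh1. Without DKO liver 4 they were −0.679 ± 0.12 (SE, adjusted p = 0.00148) and −0.776 ± 0.14 (SE, 0.00127). Fh1 had 187, 265, 185 and 318 CPM in DKO livers, with a log2 fold change of −0.23 (adjusted p = 0.467) that became −0.406 (0.0481) without that liver. Leaving out DKO liver 4 raised the count of called members from 1 to 5 (Cs and Mdh2 higher, Aco1, Idh1 and Fh1 lower) and that of all genes from 1510 to 5253, which is 35.9% of those tested. Leaving out any other single liver gave 0 called members and 244 to 719 called genes.

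Ogdh had 306, 396, 258 and 216 CPM in DKO livers and spread over both sides of the WT range, with a coefficient of variation of 26.3% against 6.19% in WT. Suclg1 had 198, 235, 263 and 213 CPM. Idh3a had 49.4, 51.2, 47.3 and 50.1 CPM, which is as narrow as the WT group and centred on it. Log2 fold changes against WT were −0.01 for Ogdh (adjusted p = 0.969), −0.09 for Suclg1 (0.658) and −0.02 for Idh3a (0.895, edgeR). With library totals alone these were 0.163, 0.088 and 0.151, and the median of all genes was 0.202.

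DKO liver 4 had 8.86e+04 CPM of summed hepatocyte markers, whereas the DKO group ranged from 3.92e+04 to 8.86e+04 CPM with a median of 4.51e+04. Its summed cholangiocyte markers were 31.1 CPM, inside the WT range, and the DKO range was 9.6 to 31.1 CPM. In that liver the summed markers of macrophages (343 CPM, DKO range 107 to 343), stellate cells (88.5, range 61.2 to 90.5), lymphocytes (20, range 5.35 to 20) and exocrine pancreas (8.57, range 4.22 to 8.57) were above the WT range, narrowly so for macrophages, and those of endothelial (212, range 165 to 241) and erythroid cells (205, range 120 to 658) were inside it. The part of these shifts in the values of the cycle genes was not tested. Of the 9 genes it lay inside the WT range for 3 (Aco1, Idh1 and Idh3a), above it for 4 (Cs, Idh2, Fh1 and Mdh2) and below it for 2 (Ogdh and Suclg1). Genotype, Xist counts and anything else particular to that liver cannot be told apart, since it is 1 liver.

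**Figure D3:**
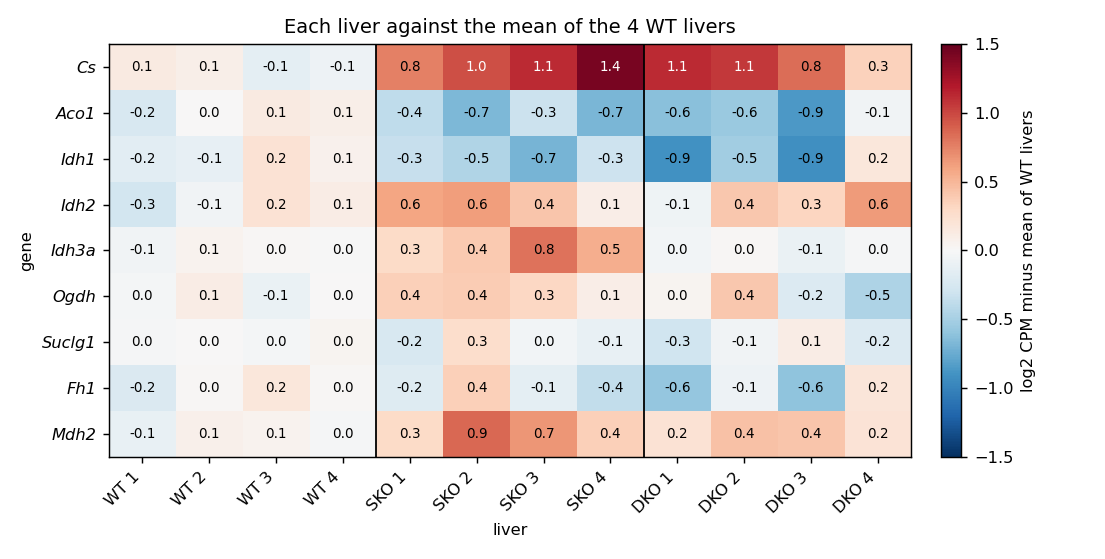
Log2 CPM of each gene in each liver minus the mean of the 4 WT livers, with genes in cycle order and black lines between genotypes; red is above and blue below the WT mean. Cs is above the WT mean in all 8 knockout livers, and Aco1 and Idh1 are below it in all SKO livers and in DKO livers 1 to 3.

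The comparison of DKO with SKO livers asks, by their labels, what the added deletion of Atf3 changes. Atf3 itself lay above WT in DKO livers 1 to 3 and was not called between DKO and SKO livers (log2 fold change −1.91, adjusted p = 0.701, edgeR), although their ranges did not overlap. None of the 9 genes was called by edgeR, and 1 (Idh3a) had an unadjusted p under 0.05. Over all 14363 genes, 0.0209% were called and 6.49% had an unadjusted p under 0.05. DESeq2 and the fit restricted to livers with Y-linked counts also called none of the 9. The median log2 fold change of the 9 was −0.151 against 0.00858 over all genes.

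Idh3a was the one gene of the 9 whose DKO and SKO livers did not overlap, with 47.3 to 51.2 CPM in DKO and 61.7 to 89.5 CPM in SKO livers, and 3.94% of all genes had no overlap (1.86% with DKO lower). Its log2 fold change was −0.54 ± 0.15 (SE), with an unadjusted p of 0.00462 and an adjusted p of 0.469 from edgeR. Across the 16 alternative settings it ranged from −0.615 to −0.424, and the adjusted p from 0.115 to 0.935, so the difference did not pass in any. With the livers that had Y-linked counts it was −0.443 ± 0.15 (adjusted p = 0.512). Idh3a was called higher in SKO against WT, and the means of DKO and WT livers were 49.5 ± 1.61 and 50.7 ± 1.64 CPM (SD, n = 4). The comparisons share livers, so these are 1 set of values seen from each side.

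For the other 8 genes the DKO and SKO livers overlapped. Log2 fold changes were −0.20 ± 0.20 (SE) for Cs, −0.22 ± 0.17 for Mdh2 and −0.30 ± 0.19 for Ogdh. Those of Aco1, Idh1, Idh2, Suclg1 and Fh1 lay between −0.151 and 0.0398. With 1 liver left out, Cs ranged from −0.295 to −0.068, Mdh2 from −0.305 to −0.108 and Ogdh from −0.462 to −0.188. The sign for Aco1, Idh1, Idh2, Suclg1 and Fh1 depended on the liver left out. None of these differences passed the test at 4 livers a group, and the size that such a test could detect was not computed. In DKO livers Idh1 over Idh2 per kilobase was 1.25, 1.18, 0.945 and 1.62, below every WT liver in each of the 4, and it was 1.25 ± 0.28 against 1.23 ± 0.296 in SKO livers (SD, n = 4).

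**Figure D4:**
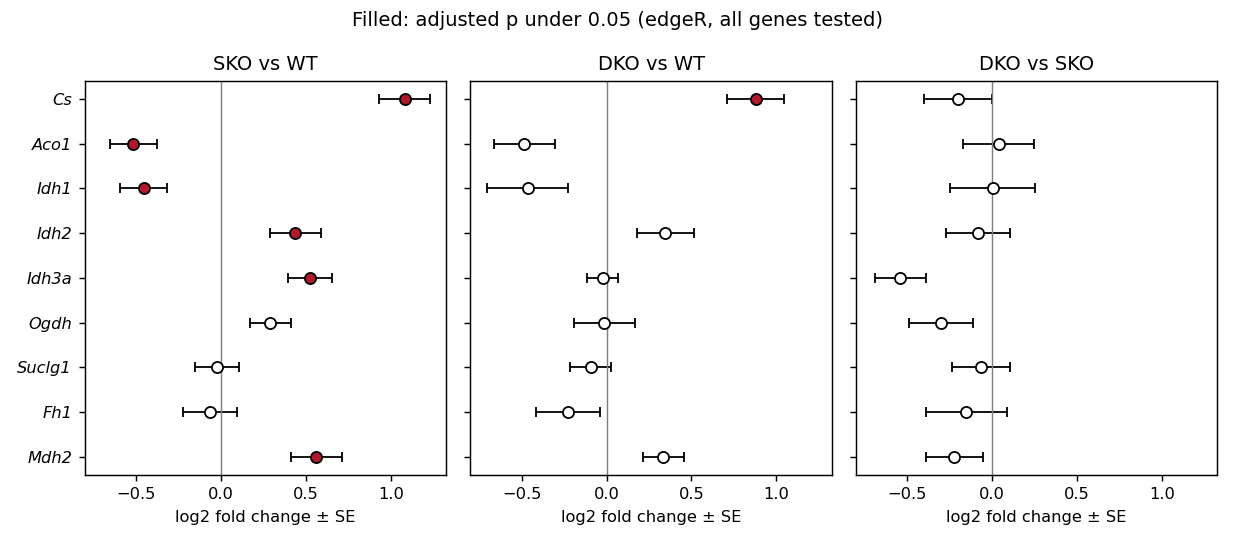
Log2 fold change ± SE of each gene in the 3 comparisons, from edgeR fits of 8 livers each; filled points have an adjusted p under 0.05 over all genes tested. Against WT, 6 genes are filled for SKO and only Cs for DKO, and no point is filled between DKO and SKO.

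Across the 12 livers the 9 genes did not vary as a block. The gene of the 9 most like Cs was Mdh2 (Pearson's r of log2 CPM 0.73 over 12 livers), and Aco1 and Idh1 were most like each other (r = 0.84). With genotype means removed these were 0.06 and 0.72, so the resemblance of Cs to Mdh2 was carried by differences between genotypes. The 0.72 was not computed without DKO liver 4, the highest of its group for Aco1 (227 CPM) and Idh1 (329 CPM). Among SKO livers, liver 3 had the highest Aco1 (188 CPM) and the lowest Idh1 (181 CPM). Cs and Aco1 ran opposite (r = −0.86, and −0.68 with genotype means removed). DKO liver 4 had the lowest Cs (122 CPM) and the highest Aco1 of its group, and these values were not computed without it. The livers share depth and scaling, genotype groups and the outlying DKO liver 4, and these r values are descriptions. Among 9789 expressed genes, the gene most like each member was Pctp for Cs (r = 0.973), Cflar for Aco1 (0.969), Tmem59 for Idh1 (0.966), Fabp1 for Idh2 (0.905), Slc25a5 for Idh3a (0.888), Maged1 for Ogdh (0.948), Ndufaf3 for Suclg1 (0.947), Babam1 for Fh1 (0.908) and Ech1 for Mdh2 (0.981).

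The remaining cycle genes were taken as a list of 21 subunits, assembly factors and lipoylation enzymes, of which 20 could be tested. In SKO against WT livers 1 was higher and 5 lower, and 14 did not pass, where 16.7% of all genes tested were higher and 15.4% lower. Lipt2, the lipoyl transferase needed for the lipoate cofactor of dehydrogenase complexes, rose from 2.56 ± 0.377 to 5.81 ± 0.918 CPM (SD, n = 4). Dhtkd1, the E1 subunit of the 2-oxoadipate dehydrogenase of lysine breakdown, fell from 164 ± 12.5 to 60.8 ± 19.3 CPM, and Mdh1, cytosolic malate dehydrogenase, from 532 ± 32.1 to 337 ± 26.8 CPM. Sdhaf4, an assembly factor of succinate dehydrogenase, fell from 10.5 ± 0.968 to 7.46 ± 0.367 CPM, and Sdha, the flavoprotein subunit of that enzyme, from 538 ± 38 to 419 ± 29.8 CPM. Lias was also lower. Log2 fold changes were 1.18 for Lipt2, −1.43 for Dhtkd1, −0.66 for Mdh1, −0.50 for Sdhaf4 and −0.36 for Sdha, and the median of the list was −0.148. With library totals alone 2 were higher (Lipt2 and Idh3g) and 2 lower (Dhtkd1 and Mdh1), and with all 12 livers in one fit Sdha and Sdhaf4 were not called. Without WT liver 2 the calls of the list fell from 6 to 3 (Lipt2, Dhtkd1 and Mdh1). Those 3 were called whichever liver was left out, whereas Sdhaf4 lost its call without WT liver 1 or 2 or SKO liver 3, Sdha without WT liver 2, 3 or 4 or SKO liver 1, 2 or 4, and Lias when any liver other than SKO liver 4 was left out.

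Read with the 9 genes, cytosolic and matrix partners of a reaction moved in opposite directions in SKO livers for Idh1 and Idh2 and for Mdh1 and Mdh2, with each cytosolic RNA lower and each matrix RNA higher. This grouping was made after the values were seen, and not every such pair in the lists followed it. Cytosolic Pck1 was lower and mitochondrial Pck2 higher, but cytosolic Me1 was higher while the matrix enzyme Me2 did not pass, and neither Got1 nor Got2 passed. All 4 genes were called in the SKO comparison, where single livers could end the calls of Idh1 and Idh2 and library totals that of Idh1. In DKO against WT livers Mdh1 had a log2 fold change of −0.34 (adjusted p = 0.194, edgeR), and without DKO liver 4 of −0.50 (0.00355). In that comparison 1 gene of the 20 was higher (Lipt2, 0.94, adjusted p = 0.0239) and 1 lower (Dhtkd1, −1.28, adjusted p = 0.0244), against 6.06% and 4.39% of all genes, and the list's median was −0.0937. Leaving out any single liver other than DKO liver 4 left none of the list called against WT. No gene of the list was called between DKO and SKO livers.

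Enzymes and carriers that feed or drain the cycle were a second list of 19, of which 18 could be tested. In SKO against WT livers 3 were higher, 7 lower and 8 did not pass, against 16.7% higher and 15.4% lower over all genes tested. Pck2, the mitochondrial phosphoenolpyruvate carboxykinase, rose from 4.37 ± 1.11 to 15.2 ± 4.57 CPM, Mpc1, a subunit of the mitochondrial pyruvate carrier, from 35.8 ± 6.17 to 79.4 ± 18.3 CPM, and Me1, cytosolic malic enzyme, from 126 ± 13 to 268 ± 56.3 CPM (SD, n = 4). Gls2, liver glutaminase, fell from 499 ± 43.5 to 136 ± 25.6 CPM, Acly, which cleaves cytosolic citrate to acetyl-CoA, from 131 ± 18.4 to 57.1 ± 8.07 CPM, Slc25a10, the dicarboxylate carrier, from 361 ± 37.9 to 194 ± 37.3 CPM, and Slc25a13, the aspartate-glutamate carrier, from 388 ± 21.3 to 263 ± 25.5 CPM. Pck1, Slc25a21 and Glud1 were also lower. The groups overlapped for Glud1, and its call was lost without WT liver 2, 3 or 4 or SKO liver 1, 2 or 4, with library totals alone and with all 12 livers in one fit. The largest log2 fold changes of the list were 1.80 for Pck2 and −1.88 for Gls2, and the list's median was −0.23.

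In DKO against WT livers 3 genes of this list were higher and 3 lower, against 6.06% and 4.39% of all genes. Pck2 (log2 fold change 1.29), Mpc1 (0.67) and Me1 (0.85) were higher, and Acly (−1.04), Slc25a10 (−0.89) and Slc25a13 (−0.60) were lower, each with an adjusted p between 0.0166 and 0.0446 from edgeR. DKO and WT livers overlapped for Me1 alone of these 6, and Slc25a13 was not called with library totals alone or without a filter on low counts. Gls2 had the same size of change as Acly (−1.04) but did not pass (adjusted p = 0.148), and its level was 240 ± 197 CPM. DKO liver 4 had 536 CPM of Gls2 and the others 134 to 151 CPM, and without that liver the log2 fold change was −1.81 (adjusted p = 1.3e-06). The list's median was −0.261, and none of the list was called between DKO and SKO livers. Without DKO liver 4, 12 of this list and 5 of the list of other cycle genes were called against WT, where 35.9% of the 14634 genes tested were called. The added genes included Sdha, with a log2 fold change of −0.40 (adjusted p = 0.022) in place of −0.33 (0.145). None of this list was called without WT liver 1, 2 or 4 or DKO liver 3, 1 without DKO liver 2, 2 without DKO liver 1 and 4 without WT liver 3.

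**Figure D5:**
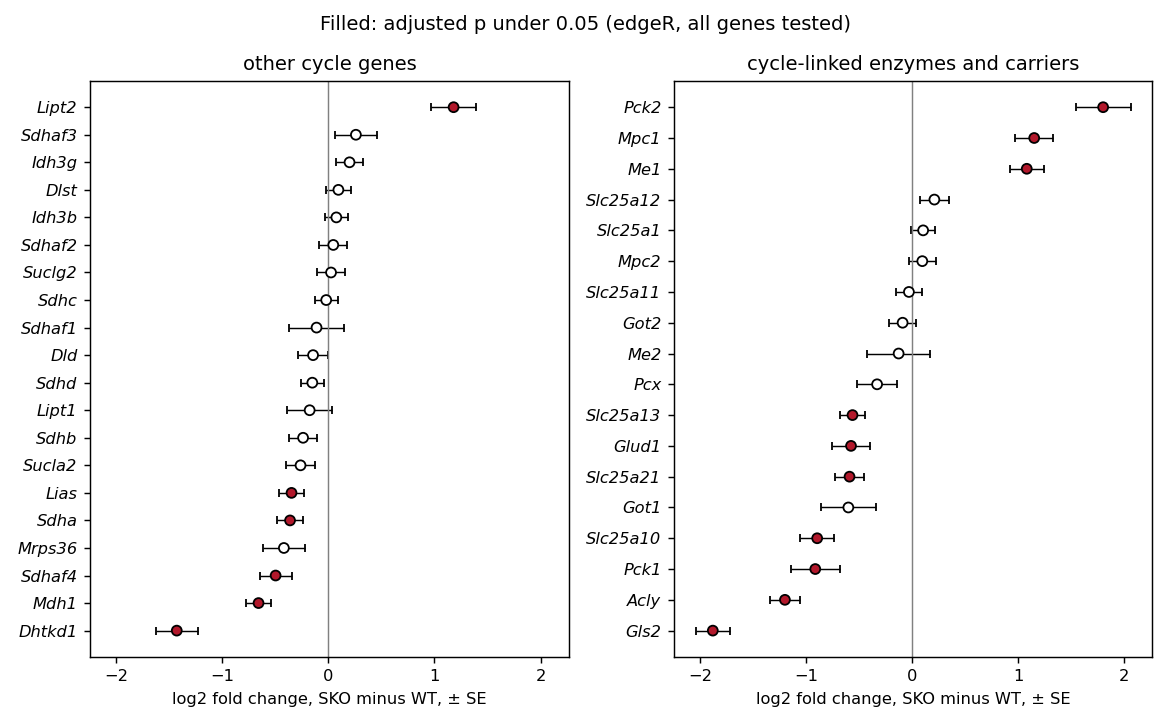
Log2 fold change ± SE in SKO against WT livers of the 20 other cycle genes (left) and the 18 cycle-linked enzymes and carriers (right), with filled points for an adjusted p under 0.05. Lipt2 (1.18) tops the left panel and Pck2, Mpc1 and Me1 the right one, while Dhtkd1 (−1.43) and Gls2 (−1.88) are lowest.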

How the data were processed

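The authors deposited raw read counts per gene for 12 livers, with symbols and gene lengths, from libraries made by Novogene from TRIzol-extracted total RNA. The submitters' processing notes name HISAT2 and GRCm38/mm10, and the counting program is not given in the sources used here. The start and end of 1 of the 9 members in the count table equal those of GENCODE M21 on GRCm38, so positions are given from GENCODE M21 and RefSeq (GRCm38.p6) rather than from the table. The deposited FPKM values and the authors' own fold changes and p-values in separate tables were not used.

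Counts were fitted per comparison on 8 livers with edgeR 4.0.16 in R 4.3.3 (filterByExpr, TMM, quasi-likelihood F-test, Benjamini-Hochberg over all genes tested, threshold 0.05). SE is the log2 fold change divided by the square root of F. CPM were scaled by TMM over 12 livers, and log2 CPM used a prior count of 2. Genes most like a member were sought among genes with a mean of at least 5 CPM. DESeq2 1.42.0, other scalings, no filter, all 12 livers in one fit, a replicate block, each liver left out and only livers with Y-linked counts were alternatives. The scripts were tested on simulated data.

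The members and lists were chosen with earlier results of these data known. All 9 members were described, and in each list the 5 called genes with the smallest p-values per comparison were given values. The labels do not say that the livers are from separate litters or days, and p-values measure the spread between these livers. No pair of libraries of the same genotype was alike within sampling noise (chi-square per degree of freedom at least 18.5). In the list of other cycle genes, 1 gene is not reported here and was left out of the counts.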

Additional observations from a re-analysis of the deposited data

Results flagged for a closer look

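In 72 sets of 4 livers (the named genes and the Idh1 to Idh2 ratio, by genotype), 3 had 1 liver far from the other 3 by Dixon's test, where chance gives about 1 in 20, or 3.6. In 2 of the 3 it was DKO liver 4. Gls2 was 536 CPM in that liver and 134 to 151 CPM in DKO livers 1 to 3. Mdh1 was 538 CPM against 366 to 388 CPM. Both values lay close to the WT means of 499 ± 43.5 and 532 ± 32.1 CPM (SD, n = 4). The same liver had Xist counts, 5 counts of Atf3 and summed hepatocyte markers above the WT range (8.86e+04 CPM against 6.89e+04 to 8.62e+04), and the part of these in its values was not tested. The third was Sdha in WT liver 1, with 482 CPM against 551 to 563 CPM in the other WT livers.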

How the results depend on the processing

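Cs, Idh3a and Mdh2 were called higher in SKO against WT livers under all 15 alternatives, Aco1 lower under 14, Idh1 under 8 and Idh2 under 6. No member was called between DKO and SKO livers under any of 16. Replicate numbers did not pair the livers (correlations of same-numbered deviations from −0.34 to 0.09). With the replicate number as a block the other cycle genes called were 3 in SKO and 1 in DKO against WT, all genes were 691 for DKO against WT and 0 for DKO against SKO, Idh1 and Idh2 lost their calls in SKO livers (adjusted p = 0.0596 and 0.0879), Me1 and Slc25a13 theirs in DKO livers against WT, and Idh1 for DKO against SKO was −0.072.

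DESeq2 called 2 members and 2508 genes for DKO against WT, and 91 genes for DKO against SKO. Without a filter, 3 other cycle genes were called for SKO against WT and 35 genes for DKO against SKO. Library totals called 3 members for DKO against WT and 5 higher and 0 lower for SKO against WT, with 79.2% of called genes higher for DKO in place of 58%. Livers with Y-linked counts gave 21 genes for DKO against SKO. The cause of these shifts was not tested.

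Signs turned only for uncalled members. With library totals, Suclg1 was 0.149 and Fh1 0.106 (SKO against WT), and Idh3a 0.151, Ogdh 0.163 and Suclg1 0.088 (DKO against WT). For DKO against SKO, Idh1 was −0.024 (DESeq2), −0.009 (RLE), −0.036 (library totals), −0.035 (no filter) and −0.006 (all 12 livers), and with Y-linked livers −0.394, with Aco1 −0.095.

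Leaving out 1 liver at a time gave 4 to 7 members, 3 to 6 other cycle genes, 9 to 11 linked genes and 3617 to 4711 genes for SKO against WT. For DKO against WT it gave 0 to 5, 0 to 5, 0 to 12 and 244 to 5253, and for DKO against SKO 0 members and 0 to 15 genes. In those fits log2 fold changes ranged from −0.13 to 0.049 (Suclg1) and −0.237 to 0.029 (Fh1) for SKO against WT and −0.178 to 0.102 (Ogdh) for DKO against WT. For DKO against SKO they ranged from −0.164 to 0.143 (Aco1), −0.32 to 0.126 (Idh1), −0.211 to 0.031 (Idh2), −0.147 to 0.04 (Suclg1) and −0.338 to 0.018 (Fh1).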
